A study of Mus musculus with 44 samples.

Results

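The genes described here are Ndrg1 and 9 genes of the response to low oxygen, Hif1a, Epas1, Egln1, Egln3, Pgk1, Ldha, Pdk1, Bnip3 and Vegfa, in mouse kidney. They were picked by name, 10 of the 24733 genes with a value above 0. Ndrg1 was picked because its 24-hour rhythm in wild-type kidney was no longer seen in Bmal1-knockout kidney, so its own values by genotype and time are a description with no test. The question for the other 9 was whether any of them shared that loss. Kidneys came from 129SV mice aged 8 to 12 weeks on night-restricted feeding, all of that 1 strain, age range and regimen. One group of animals was wild type (WT) and the other was Bmal -/- (KO), lacking function of the clock transcription factor Bmal1, whose gene is Arntl. The labels do not describe the KO allele further. Sampling was every 4 hours, at zeitgeber time (ZT, hours from lights on) 0, 4, 8, 12, 16 and 20, with 2 polyA RNA libraries, A and B, for each genotype at each time. Nothing in the labels says that A and B came from separate animals, so p-values measure only the spread between these libraries.

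Hypoxia-inducible factors (HIFs) are transcription factors made of an oxygen-regulated alpha subunit, such as the products of Hif1a or Epas1, and the stable partner Arnt. When oxygen is plentiful, prolyl hydroxylases such as those encoded by Egln1 and Egln3 mark the alpha subunit for destruction through the von Hippel-Lindau protein. When oxygen is scarce, the alpha subunit builds up and raises transcription of genes for glycolysis, blood vessel growth and mitochondrial turnover. The kidney is known for steep oxygen gradients between cortex and medulla, and for making erythropoietin under HIF control. Because oxygen acts mainly on the alpha protein, the RNA values below are no measure of HIF protein or of its activity. Ndrg1 encodes a stress-responsive protein and is a widely used HIF target. It is also induced by other signals.

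Values are in TPM, transcript abundance corrected for length and scaled to a fixed sum per library, so levels of different genes can be compared but the depth is not known. From 12398 to 12911 genes per library had 1 TPM or more. Arntl RNA did not check the genotype labels, since it was still listed at 4.19 to 6.28 TPM in the KO libraries against 0.295 to 12.9 TPM in WT. In the library labelled KO ZT4 A, Cry1 and Nr1d1, clock genes under Bmal1 control, stood at 1.03 and 23.8 TPM. The other 11 KO libraries held 11.5 to 17.8 TPM of Cry1 and 1.23 to 3.46 TPM of Nr1d1, and WT at ZT4 held 0.845 to 1.2 and 22 to 33 TPM. The library labelled KO ZT12 A held 3.31 TPM over 4 Y-linked genes, against 48 to 69.1 TPM in each of the other 23. Both were kept under their labels, and reported calls of named genes that changed without them are given beside the results. The defining proximal tubule transcripts were abundant in every library (2110 to 3472 TPM summed over 6 genes), and the 4 adrenal cortex markers summed to at most 1.34 TPM.

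Promoter sequence was at hand for 8 of the 10 genes, in the RefSeq promoter table (GRCm38.p6). The table had no entry for Ndrg1 or Epas1. The sequences below are the bases just before the transcription start, read 5′ to 3′ on the gene's strand, for the 3 genes with a tested WT rhythm (Egln3, Pgk1, Bnip3), for Ldha, whose rhythm passed in some fits, and for Hif1a, whose level differed between genotypes. Capitals mark the core of the hypoxia response element, ACGTG or GCGTG, on either strand, so that CACGT and CACGC are the same cores read on the other strand. The E-box CACGTG, to which Bmal1 binds with its partner, contains ACGTG on both strands and is capitalised whole.
Hif1a: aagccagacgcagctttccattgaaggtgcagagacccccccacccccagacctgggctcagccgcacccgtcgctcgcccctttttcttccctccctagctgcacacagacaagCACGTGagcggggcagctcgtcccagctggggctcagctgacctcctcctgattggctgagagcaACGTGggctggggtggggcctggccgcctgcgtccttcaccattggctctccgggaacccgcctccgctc
Egln3: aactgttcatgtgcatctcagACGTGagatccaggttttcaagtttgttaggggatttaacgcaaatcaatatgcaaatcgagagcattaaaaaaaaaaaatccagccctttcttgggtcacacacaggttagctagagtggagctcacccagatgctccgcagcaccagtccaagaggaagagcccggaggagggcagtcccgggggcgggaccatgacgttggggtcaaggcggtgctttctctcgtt
Pgk1: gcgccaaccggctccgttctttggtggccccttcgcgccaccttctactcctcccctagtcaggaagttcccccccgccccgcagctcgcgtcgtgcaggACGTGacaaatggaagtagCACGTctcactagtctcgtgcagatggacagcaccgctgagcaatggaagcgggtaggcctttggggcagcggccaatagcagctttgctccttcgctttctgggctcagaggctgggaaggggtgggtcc
Ldha: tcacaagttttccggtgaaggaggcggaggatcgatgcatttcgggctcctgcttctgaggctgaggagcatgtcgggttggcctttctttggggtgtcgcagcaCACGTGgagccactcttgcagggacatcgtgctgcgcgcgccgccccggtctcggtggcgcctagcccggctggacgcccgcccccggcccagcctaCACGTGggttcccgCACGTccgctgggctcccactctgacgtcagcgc
Bnip3: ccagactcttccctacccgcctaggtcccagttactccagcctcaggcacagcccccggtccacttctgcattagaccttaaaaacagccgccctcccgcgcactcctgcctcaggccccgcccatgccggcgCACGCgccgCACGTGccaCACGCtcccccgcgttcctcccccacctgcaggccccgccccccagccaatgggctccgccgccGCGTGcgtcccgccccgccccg
These are chr12:73907617-73907866 (plus strand), chr12:54203875-54204124 (minus), chrX:106186850-106187099 (plus), chr7:46845554-46845803 (plus) and chr7:138909520-138909756 (minus). The Bnip3 stretch has 237 bases, since bases that GENCODE M21 places in an exon were left out, and the others have 250. GENCODE M21 places none of the 5 stretches in an exon. Those of Hif1a and Ldha lie within an intron of the gene, because M21 has transcripts that start further upstream, and the other 3 are intergenic. A hypoxia core lay in 9 of the 11 windows of 250 bases listed for the 8 genes, at least 1 for each gene, and in 38.6% of the 32851 windows in the whole table. CACGTG lay in 3 of the 11, those of Hif1a, Ldha and Bnip3, and in 6.02% of all windows. Pdk1, whose rhythm passed in some fits and whose level differed between genotypes, is not printed. Its first window held 1 core, its second none, and neither held an E-box. In Pgk1 the 2 cores began 150 and 131 bases before the start. In Ldha, 2 E-boxes and 1 further core were found. The letters are matches only, and nothing in these RNA data measured binding.

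Ndrg1 (ENSMUSG00000005125, GRCm38 chromosome 15, 66929318 to 66969640, minus strand) was the most abundant of the 10 in WT and in KO. In WT it held 974 and 1051 TPM at ZT0, 1051 and 1001 at ZT4, 546 and 387 at ZT8, 355 and 289 at ZT12, 447 and 646 at ZT16, and 937 and 1006 at ZT20. WT levels were therefore high from ZT20 to ZT4 and low at ZT12, with a mean 3.18 times higher at ZT4 than at ZT12. In KO it held 1083 and 1162 TPM at ZT0, 1205 and 1319 at ZT4, 1214 and 1510 at ZT8, 1431 and 1429 at ZT12, 1288 and 1359 at ZT16, and 1275 and 1271 at ZT20. All 12 KO libraries lay above all 12 WT libraries, including the library labelled KO ZT4 A, at 1205 TPM. Such a complete separation with KO higher was seen in 1.42% of the 12874 genes tested, those whose mean reached 1 TPM. In whole kidney, a change in the number of cells of a type and a change in RNA per cell cannot be told apart.

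**Figure D1:**
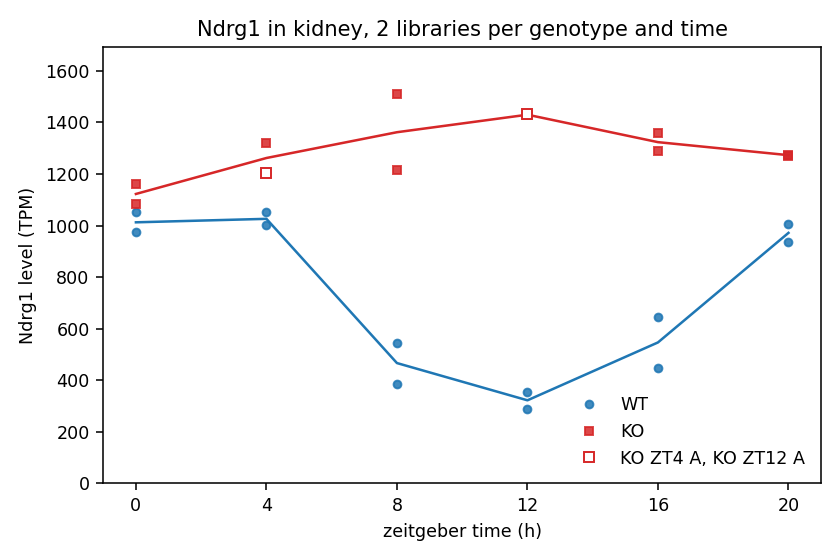
Ndrg1 level in TPM (vertical axis) against zeitgeber time in hours (horizontal axis) in WT (circles) and KO (squares), with lines through the means of the 2 libraries. Open squares are the libraries labelled KO ZT4 A and KO ZT12 A. WT falls to 322 TPM at ZT12 while KO stays between 1123 and 1430 TPM.

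The gap between genotypes depended on the hour. The KO mean was 1.11 times the WT mean at ZT0 and 1.23 times at ZT4, and rose to 2.92 times at ZT8 and 4.44 times at ZT12. It was 2.42 times at ZT16 and 1.31 times at ZT20. At ZT12 WT held 322 TPM ± 46.7 (SD, n = 2) and KO 1430 TPM ± 1.67 (SD, n = 2). A 24-hour cosine was fitted to log2(TPM + 0.1), and its peak minus its trough is called the swing below. In WT the swing of Ndrg1 was 1.78 log2 units (SE 0.16), with the peak at 23.8 h (SE 0.3). In KO the swing was 0.29 log2 units (SE 0.16). The mean log2 level was 0.98 higher in KO (SE 0.18). These values chose the gene or belong to the same contrast, and they support nothing further here.

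Ordered by mean level, the 6 WT times came first and the 6 KO times after them. From the lowest, the WT order was ZT12, ZT8, ZT16, ZT20, ZT0 and ZT4. WT at ZT12 (289 to 355 TPM) did not overlap ZT8 (387 to 546 TPM), ZT8 overlapped ZT16 (447 to 646 TPM), and ZT16 did not overlap ZT20. The WT ranges at ZT20, ZT0 and ZT4 overlapped one another in that order, so the order of those 3 is not resolved. KO continued as ZT0, ZT4, ZT20, ZT16, ZT8 and ZT12. KO at ZT0 (1083 to 1162 TPM) lay above WT at ZT4 and below KO at ZT4 without overlap, KO at ZT4 overlapped ZT20, and ZT20 did not overlap ZT16, which overlapped ZT8. The KO ranges at ZT8 (1214 to 1510 TPM) and ZT12 overlapped, so the highest KO time is not resolved either.

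Of the genes tested, the 6 outside the group whose log2 levels followed Ndrg1 most closely over the 24 libraries were Slc16a1 (Pearson r = 0.975), Npas2 (0.959), Dtx4 (0.950), Avpr1a (0.933), Rhobtb1 (0.929) and Cluh (0.929). Slc16a1 encodes a monocarboxylate transporter that carries lactate, and Npas2 a partner of Bmal1. The 3 with the most opposite pattern were Per3 (-0.924), a clock repressor, Alms1-ps2 (-0.907) and Mcm10 (-0.903). No member of the hypoxia group came near these values. The highest were Ldha (0.434), Vegfa (0.383) and Hif1a (0.362), and the lowest was Bnip3 (-0.616). Within the 12 WT libraries alone, r with Ndrg1 was 0.786 for Ldha, 0.696 for Pgk1, -0.704 for Bnip3 and -0.746 for Pdk1. These coefficients describe points that share libraries, times and scaling.

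The central comparison asked whether other hypoxia genes were rhythmic in WT and not in KO. Of the 9 genes other than Ndrg1, Egln3, Pgk1 and Bnip3 were rhythmic in WT at an adjusted p-value under 0.05 (limma), a call made for 13.7% of all genes tested. In KO 0 of the 9 passed, where 3.64% of all genes did, and Pdk1 alone had an unadjusted p under 0.05, as did 21.1% of all genes. The difference in rhythm between genotypes passed for 0 of the 9, where 0.629% of all genes passed. The test of that difference responds to a shift of the peak hour as well as to a change in swing. It is therefore not a test of a loss alone. At an unadjusted p under 0.05 it was met by the same 3 genes, Egln3, Pgk1 and Bnip3, and by 13.7% of all genes. The median swing of the 9 was 0.28 log2 units in WT and 0.14 in KO, beside 0.25 and 0.21 over all genes tested. When the 6 times were fitted as separate levels, none of the 3 passed in WT (adjusted p 0.0554 for Egln3, 0.0852 for Pgk1 and 0.0888 for Bnip3), where 4.47% of all genes did.

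**Figure D2:**
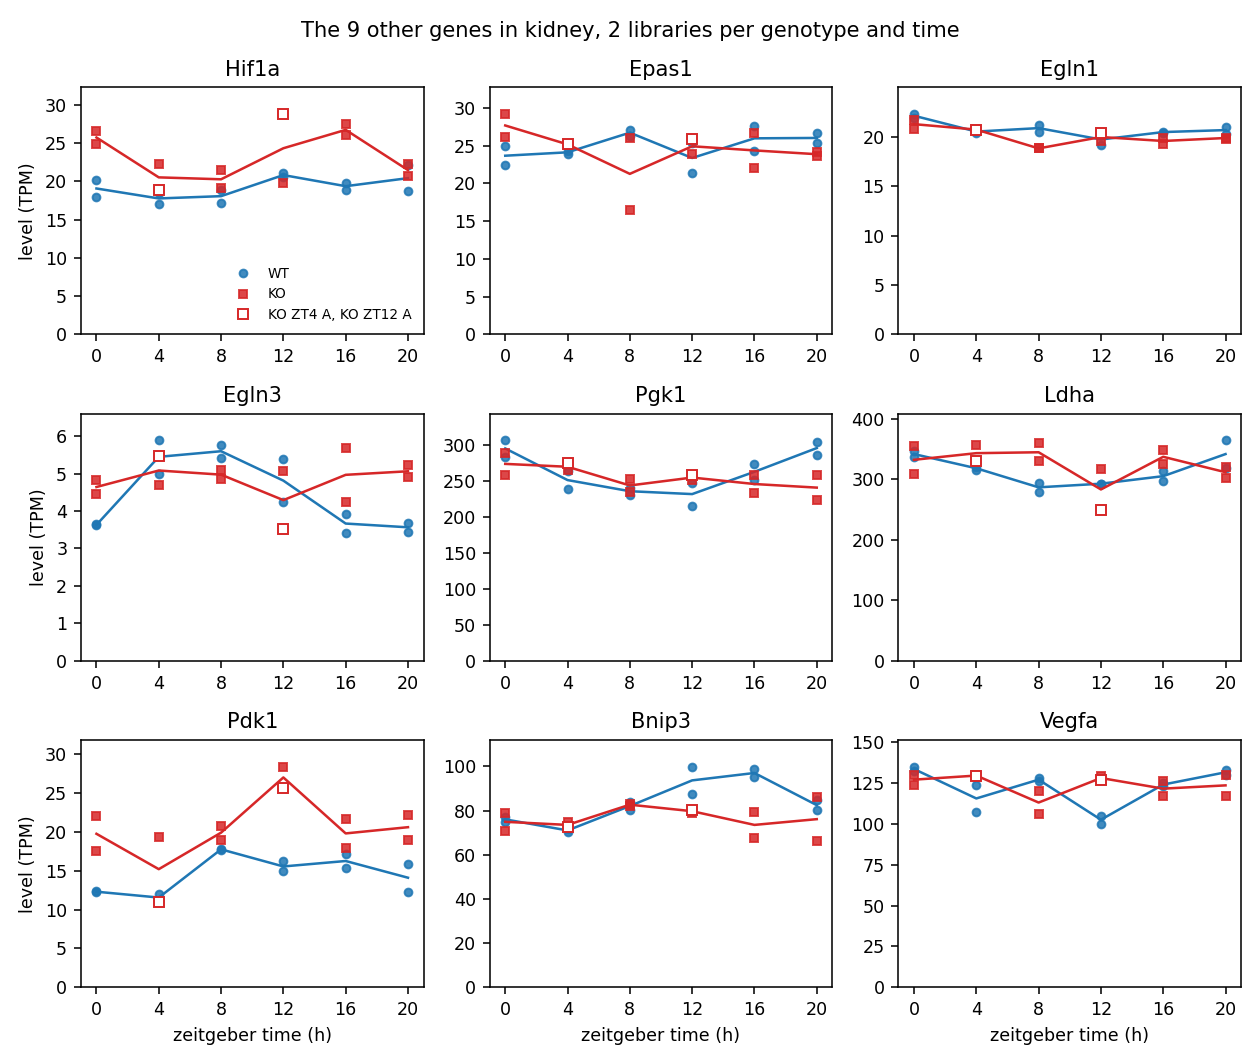
Level in TPM (vertical axes, each from 0) against zeitgeber time in hours for the 9 other genes in WT (circles) and KO (squares), with lines through the means of 2 libraries. Open squares are the libraries labelled KO ZT4 A and KO ZT12 A. Egln3 is higher from ZT4 to ZT12 in WT, Pgk1 at ZT20 and ZT0, and Bnip3 at ZT12 and ZT16, and KO levels of Hif1a and Pdk1 lie above WT at most times.

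Among the genes of oxygen sensing, Egln3, which encodes a prolyl hydroxylase and is itself a HIF target, had the clearest daily course. In WT it held 3.64 and 3.62 TPM at ZT0, 5.89 and 5 at ZT4, 5.42 and 5.77 at ZT8, 5.39 and 4.23 at ZT12, 3.41 and 3.92 at ZT16, and 3.69 and 3.44 at ZT20. In KO it held 4.45 and 4.83 TPM at ZT0, 5.46 and 4.7 at ZT4, 5.09 and 4.85 at ZT8, 3.51 and 5.07 at ZT12, 5.68 and 4.25 at ZT16, and 5.22 and 4.9 at ZT20. WT was thus high from ZT4 to ZT12 and low from ZT16 to ZT0, and the KO values of those times overlapped. The KO libraries lay above WT without overlap at ZT0, ZT16 and ZT20 and below it at ZT8. With 2 libraries per group, such a separation at a single time is common without any difference. It was not tested, here or for the genes below, and no share over all genes is at hand. The WT fit gave a swing of 0.75 log2 units (SE 0.14) with the peak at 7.5 h (SE 0.7, adjusted p 0.00291). The KO fit gave 0.11 log2 units (SE 0.14, adjusted p 0.859). The difference in swing, KO minus WT, was -0.63 log2 units (SE 0.19). The test of the difference in rhythm, which takes swing and peak hour together, gave an adjusted p of 0.114. Its adjusted p stayed between 0.0594 and 0.422 over all the alternatives tried.

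Egln1, the main prolyl hydroxylase of most tissues, was nearly flat. It ranged from 19.1 to 22.3 TPM over the 12 WT libraries and from 18.8 to 21.7 TPM over the 12 KO libraries, with a swing of 0.11 log2 units (SE 0.05) in each. Even so, its genotypes were separate at every time but ZT12. Hif1a, which encodes the widely expressed alpha subunit, held 18 and 20.1 TPM at ZT0 in WT, 18.5 and 17 at ZT4, 17.2 and 18.9 at ZT8, 21.1 and 20.5 at ZT12, 18.9 and 19.8 at ZT16, and 18.7 and 22.1 at ZT20. In KO it held 26.5 and 24.9 TPM at ZT0, 18.8 and 22.2 at ZT4, 21.4 and 19.1 at ZT8, 28.8 and 19.8 at ZT12, 26 and 27.4 at ZT16, and 20.7 and 22.2 at ZT20. The genotypes were separate at ZT0, ZT4, ZT8 and ZT16 and overlapped at ZT12 and ZT20. The highest KO value of Hif1a was that of the library labelled KO ZT12 A. Its rhythm did not pass in either genotype (adjusted p 0.553 in WT and 0.38 in KO), and the difference between them was 0.08 log2 units (SE 0.18). Epas1, the alpha subunit typical of endothelium and renal interstitium, ranged from 21.4 to 27.6 TPM in WT and from 16.5 to 29.2 TPM in KO. In WT its swing was 0.05 log2 units (SE 0.13) and in KO it was 0.20 (SE 0.13), neither past the threshold (adjusted p 0.963 and 0.597).

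Of the metabolic targets, Pgk1, the glycolytic enzyme phosphoglycerate kinase, was rhythmic in WT and peaked late in the night. In WT it held 307 and 284 TPM at ZT0, 264 and 239 at ZT4, 241 and 231 at ZT8, 248 and 216 at ZT12, 274 and 252 at ZT16, and 287 and 305 at ZT20. In KO it held 289 and 259 TPM at ZT0, 275 and 265 at ZT4, 253 and 235 at ZT8, 258 and 252 at ZT12, 234 and 258 at ZT16, and 258 and 224 at ZT20. The genotypes were separate at ZT4 and ZT12, with KO higher, and at ZT20, with KO lower. The WT swing was 0.39 log2 units (SE 0.08) with the peak at 21.6 h (SE 0.7, adjusted p 0.00445). In KO it was 0.14 log2 units (SE 0.08, adjusted p 0.467). The swing in KO minus that in WT was -0.25 log2 units (SE 0.11). The test of the difference in rhythm gave an adjusted p of 0.176.

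Ldha encodes the lactate dehydrogenase subunit that favours lactate formation. Its WT values were 337 and 347 TPM at ZT0, 316 and 321 at ZT4, 280 and 294 at ZT8, 293 and 293 at ZT12, 297 and 314 at ZT16, and 319 and 365 at ZT20. In KO they were 309 and 356 TPM at ZT0, 330 and 357 at ZT4, 360 and 330 at ZT8, 250 and 317 at ZT12, 349 and 326 at ZT16, and 321 and 303 at ZT20. WT was lowest at ZT8, where both KO libraries were higher, as they also were at ZT4 and ZT16, and the lowest value of all, 250 TPM, was that of the library labelled KO ZT12 A. The WT swing was 0.28 log2 units (SE 0.09) with the peak at 22.4 h (SE 1.3), and did not pass (adjusted p 0.102). It passed without the library labelled KO ZT12 A (adjusted p 0.018, where 16.2% of genes passed) and in a fit of the WT libraries alone (0.00823, where 22.1% passed). In the other fits the spread is estimated over both genotypes. The swing in KO minus that in WT was -0.12 log2 units (SE 0.13). The test of the difference in rhythm gave an adjusted p of 0.559.

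Pdk1, a kinase that holds pyruvate out of the mitochondrial citric acid cycle, had a swing of the same fitted size in both genotypes. In WT it held 12.2 and 12.4 TPM at ZT0, 11.1 and 12 at ZT4, 17.8 and 17.7 at ZT8, 16.2 and 14.9 at ZT12, 17.1 and 15.4 at ZT16, and 15.9 and 12.3 at ZT20. In KO it held 22 and 17.5 TPM at ZT0, 11 and 19.4 at ZT4, 19 and 20.8 at ZT8, 25.6 and 28.4 at ZT12, 17.9 and 21.7 at ZT16, and 19 and 22.2 at ZT20. KO lay above WT without overlap at every time except ZT4, where the library labelled KO ZT4 A had the lowest value of all 24. In WT the swing was 0.51 log2 units (SE 0.19) with the peak at 12.7 h, and in KO it was 0.51 (SE 0.19) with the peak at 14.2 h. Neither passed (adjusted p 0.173 and 0.23), although WT passed when fitted alone (adjusted p 0.0413), and KO minus WT was 0.01 log2 units (SE 0.27). Without the libraries labelled KO ZT4 A and KO ZT12 A, the KO value was 0.23 log2 units (adjusted p 0.626). Only 33.5% of Pdk1 TPM came from its protein-coding transcript, and with protein-coding transcripts alone the rhythm passed in WT (0.42 log2 units, adjusted p 0.0337) and in KO (0.53 log2 units, adjusted p 0.0219), calls made for 16.5% and 5.25% of genes.

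Bnip3, a mitochondrial protein that starts the removal of mitochondria by autophagy, peaked in WT in the early night. It held 77.2 and 74.8 TPM at ZT0, 70.4 and 71.6 at ZT4, 80.4 and 83.7 at ZT8, 99.9 and 87.4 at ZT12, 98.9 and 95.1 at ZT16, and 80.1 and 84.8 at ZT20 in WT. In KO it held 70.7 and 79.1 TPM at ZT0, 72.4 and 74.6 at ZT4, 83.1 and 82.2 at ZT8, 80.4 and 79 at ZT12, 67.5 and 79.5 at ZT16, and 66.1 and 86.1 at ZT20. Both KO libraries were below both WT libraries at ZT12 and ZT16, the times at which WT was highest, and slightly above them at ZT4. The WT swing was 0.44 log2 units (SE 0.08) with the peak at 14.5 h (SE 0.7, adjusted p 0.00379), and in KO it was 0.13 (SE 0.08, adjusted p 0.57). The swing in KO minus that in WT was -0.31 log2 units (SE 0.12). The test of the difference in rhythm gave an adjusted p of 0.172. Vegfa, the main growth factor for blood vessels, ranged from 100 to 135 TPM in WT, lowest at ZT12, and from 106 to 130 TPM in KO. In WT its swing was 0.25 log2 units (SE 0.09, adjusted p 0.141), and in KO it was 0.08 (SE 0.09, adjusted p 0.856).

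**Figure D3:**
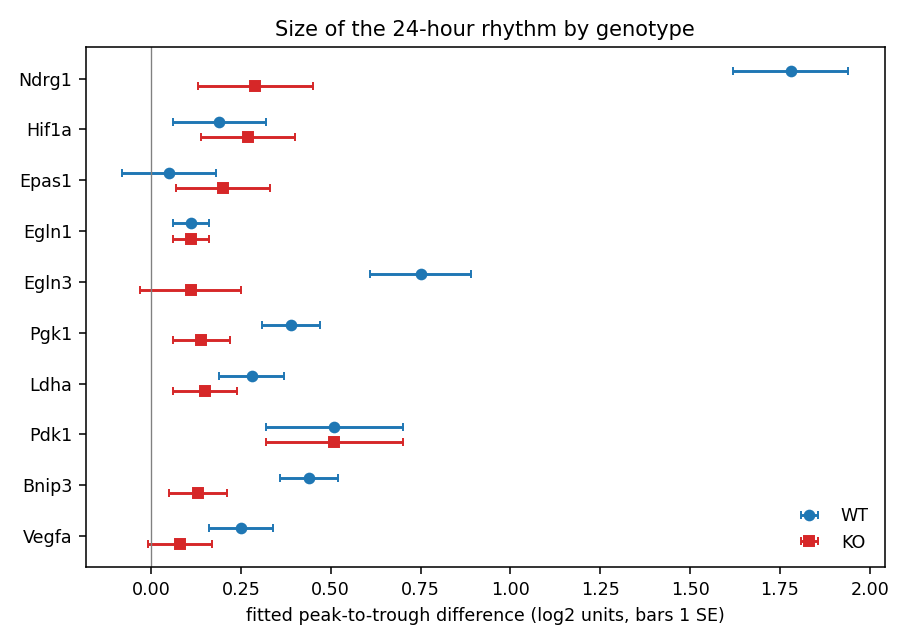
Swing, the peak minus the trough of the fitted 24-hour cosine, in log2 units (horizontal axis) for each gene in WT (circles) and KO (squares), with bars of 1 SE. The value cannot fall below 0. Ndrg1 has 1.78 in WT and 0.29 in KO, and Egln3, Pgk1 and Bnip3 have smaller values in the same order of genotypes, while Pdk1 has 0.51 in both.

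The WT peaks of the rhythmic genes did not share an hour. Ndrg1 peaked at 23.8 h and Pgk1 at 21.6 h, whereas Egln3 peaked at 7.5 h and Bnip3 at 14.5 h. The fitted WT rhythm of Ndrg1, 1.78 log2 units, was also larger than that of each of the other 9, of which Egln3 had the largest. In KO all 10 genes had swings between 0.08 and 0.51 log2 units.

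The second comparison asked how the mean level of these genes differed between genotypes once time was in the model. As deposited, Hif1a and Pdk1 were higher in KO and 0 of the 9 genes other than Ndrg1 were lower. Those calls were made for 50.9% and 10% of all genes tested. Hif1a averaged 19.2 TPM ± 1.54 (SD, n = 12) in WT and 23.1 TPM ± 3.44 (SD, n = 12) in KO, SDs that include the times. Its log2 difference was 0.26 (SE 0.06, adjusted p 0.00108), and KO exceeded WT at 6 of 6 times. Pdk1 averaged 14.6 TPM ± 2.45 (SD, n = 12) in WT and 20.4 TPM ± 4.33 (SD, n = 12) in KO. Its log2 difference was 0.47 (SE 0.09, adjusted p 0.000153), and KO exceeded WT at 6 of 6 times. Both passed without the libraries labelled KO ZT4 A and KO ZT12 A, at 0.24 (adjusted p 0.00128) and 0.51 log2 units (adjusted p 2.25e-05). Without both libraries Egln1 was lower in KO (-0.06 log2 units, adjusted p 0.0358), and without KO ZT4 A alone Bnip3 was lower (-0.13, adjusted p 0.0471).

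The level differences depended on the scaling. TPM as deposited put the median gene 0.15 log2 units higher in KO, and mitochondrially encoded transcripts held 40.5% ± 1.31 (SD, n = 12) of a WT library and 37.6% ± 1.97 (SD, n = 12) of a KO library. Under median-of-ratios scaling, which brings the median gene to 0.00, Pdk1 was still higher in KO (0.31 log2 units, adjusted p 0.00332) and Hif1a did not pass (0.10 log2 units, adjusted p 0.0967). Under that scaling 5 genes were lower in KO, a call made for 22.6% of all genes. They were Bnip3 (-0.27, adjusted p 0.000964), Egln1 (-0.20, adjusted p 6.84e-06), Pgk1 (-0.19, adjusted p 0.00494), Epas1 (-0.19, adjusted p 0.0254) and Vegfa (-0.13, adjusted p 0.0188). With TPM rescaled without the mitochondrially encoded genes, Hif1a and Pdk1 were higher and Egln1 and Bnip3 lower, calls made for 34% and 13% of all genes. Of the 9, Pdk1 alone passed as higher in KO under all 3 scalings. The log2 difference of Ndrg1 was 0.91 without the mitochondrially encoded genes and 0.82 under median-of-ratios scaling. Bnip3, the only one of the 9 lower in KO at an unadjusted p under 0.05 as deposited, lay at the adjusted threshold (-0.12 log2 units, SE 0.05, adjusted p 0.0519), and its adjusted p ranged from 0.0214 to 0.101 when 1 library was left out.

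**Figure D4:**
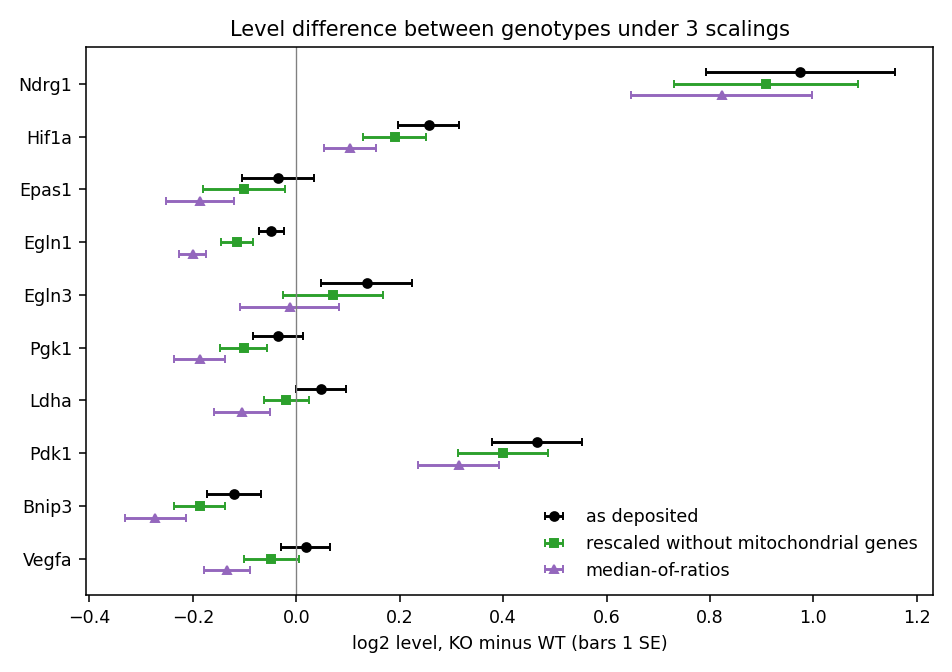
Difference in log2 level, KO minus WT (horizontal axis), for each gene with bars of 1 SE, from TPM as deposited (circles), TPM rescaled without mitochondrially encoded genes (squares) and median-of-ratios scaling (triangles). Ndrg1 and Pdk1 lie to the right of 0 under each scaling, and the small differences of the other genes shift to the left from the first to the last.

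Cell type markers also differed between genotypes. In KO all 4 markers of principal cells and all 4 of intercalated cells were higher under each of the 3 scalings. Of all genes, 50.9% were called higher as deposited, 34% when rescaled without mitochondrially encoded genes and 21.5% under median-of-ratios scaling. Of the 6 proximal tubule markers, 3 were lower and 1 was higher as deposited, beside 10% and 50.9% of all genes. The summed level of the principal cell markers ranged from 110 to 202 TPM in WT and from 150 to 393 TPM in KO, and that of the proximal tubule markers from 2916 to 3472 and from 2110 to 3472 TPM. Their part in the level differences of Hif1a and Pdk1 was not tested.

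A wider set of 71 genes of the HIF pathway in 5 lists, none of them among the 10, was examined in the same fits. Of the 64 that reached a mean of 1 TPM, 12 were rhythmic in WT and 5 in KO, beside 13.7% and 3.64% of all genes tested. Erythropoietin itself (Epo) was listed at 0 in 8 libraries and reached at most 0.217 TPM, and it was not tested. The difference in rhythm passed for 1 of the 64, Ak4, beside 0.629% of all genes. Ak4, a mitochondrial adenylate kinase, averaged 120 TPM in WT and 74.4 TPM in KO. In WT its swing was 0.90 log2 units (SE 0.14) with the peak at 16.4 h. In KO the swing was 0.38 (SE 0.14) with the peak at 22.7 h (SE 1.4). The difference in rhythm, of swing and peak hour together, had an adjusted p of 0.0437. That call held in 10 of the 24 fits that left out 1 library (adjusted p 0.025 to 0.0991). It was lost without the library labelled KO ZT4 A (0.0637), without KO ZT12 A (0.0776) and without both (0.107), without the filter on low values (0.0855) and without the trend and robust options (0.0592). With the 6 times fitted as separate levels, 3 of the 12 WT rhythms passed, those of P4ha1, Ak4 and Angpt2. In that fit the difference in rhythm also passed for Angpt2 (adjusted p 0.0494), where 0.179% of all genes passed. In the main fit it did not (0.511). Leaving out the libraries labelled KO ZT4 A or KO ZT12 A, or both, added calls. Without both, 18 of the 64 were rhythmic in WT and 5 in KO, beside 19.9% and 4.74% of all genes. Among the genes named here, the added WT calls were Slc2a1 (adjusted p 0.00125 without both), Edn1 (0.0359) and Hif1an (0.0295). The added KO calls were Higd1a (0.0483) and, without KO ZT12 A alone, Trf (0.0448). As deposited, 36 of the 64 were higher in KO and 6 lower, beside 50.9% and 10% of all genes, with a median log2 difference of 0.18 beside 0.15. Under median-of-ratios scaling the counts were 18 and 15, beside 21.5% and 22.6%.

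In the list of HIF subunits and oxygen sensing, 7 of 11 genes were higher in KO and 0 lower, beside 50.9% and 10% of all genes. Under median-of-ratios scaling 3 were higher and 2 lower, beside 21.5% and 22.6%. Cited2, which competes with HIF for a coactivator, had the smallest p-value, rising from 27.5 TPM ± 5.16 (SD, n = 12) to 49.9 TPM ± 7.48 (SD, n = 12), or by 0.86 log2 units (SE 0.11, adjusted p 2.73e-06). Hif1an, an asparagine hydroxylase that blocks HIF activity, rose by 0.24 log2 units (adjusted p 0.000168), and P4htm, a transmembrane prolyl hydroxylase, by 0.52 (adjusted p 0.000788). Arnt, the stable HIF partner, rose by 0.23 log2 units as deposited (adjusted p 0.00242) and by 0.08 under median-of-ratios scaling, where it did not pass (adjusted p 0.193). Cited2 was also the list's only gene rhythmic in WT, with 0.56 log2 units peaking at 2.5 h (adjusted p 0.0325). That call held in 17 of the 24 fits without 1 library and was lost without the filter on low values (0.0603). The difference in rhythm of Cited2 did not pass (adjusted p 0.0693).

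Of the glycolysis list, 10 of 14 genes were higher in KO and 0 lower, beside 50.9% and 10% of all genes, and under median-of-ratios scaling 7 were higher and 2 lower, beside 21.5% and 22.6%. The glucose transporter gene Slc2a1 rose from 17.3 to 31.6 TPM (0.86 log2 units, SE 0.08, adjusted p 2.56e-07). Aldoc, an aldolase isoform, rose from 10.8 to 20.3 TPM (0.87 log2 units, adjusted p 7.51e-07), Pgam1 from 163 to 225 TPM (0.46, adjusted p 5.03e-07) and the hexokinase Hk1 from 26.2 to 36 TPM (0.44, adjusted p 2.91e-05). These 4 passed under each scaling. Pgk1 and Ldha, of the same pathway, differed by -0.04 and 0.05 log2 units. Rhythmic in WT were 3 of the 14, beside 13.7% of all genes. They were Pgam1 (0.44 log2 units, peak 22.6 h), Pfkp (0.78, peak 21.7 h) and Pfkfb3 (0.72, peak 10.5 h). Pgam1 held in all 24 fits that left out 1 library, Pfkp in 17 and Pfkfb3 in 16. Pfkp was also lost with TPM rescaled without mitochondrially encoded genes (adjusted p 0.051), and Pfkp and Pfkfb3 without the filter on low values (0.0575 and 0.0716). The peaks of Pgam1 and Pfkp, a phosphofructokinase, fell near those of Pgk1 and Ldha. In KO 0 of the list were rhythmic, and 2 at an unadjusted p under 0.05, beside 3.64% and 21.1% of all genes. The difference test was passed by 0, and by 2 unadjusted, beside 0.629% and 13.7% of all genes. Without the library labelled KO ZT4 A, 1 of the list was rhythmic in KO, beside 3.74% of all genes.

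**Figure D5:**
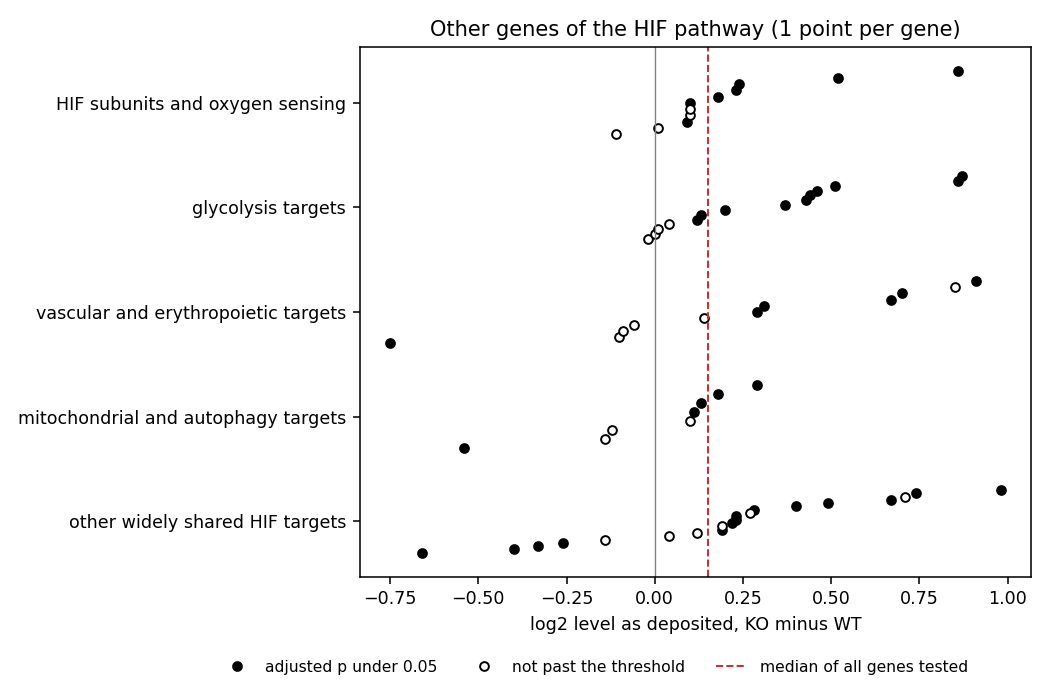
Difference in log2 level as deposited, KO minus WT (horizontal axis), for the 64 tested genes of the 5 lists, 1 point per gene, filled where the adjusted p was under 0.05. The dashed line is the median of all genes tested, 0.15, and most filled points lie to its right, with Hmox1, Pdk3 and Ak4 far to the left.

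Among vascular and erythropoietic targets, 5 of 11 were higher in KO and 1 lower, shares near those of all genes (50.9% and 10%). Under median-of-ratios scaling 3 were higher and 3 lower, beside 21.5% and 22.6% of all genes. Angpt2, an antagonist of the endothelial receptor Tek, rose from 3.99 to 7.44 TPM (0.91 log2 units, adjusted p 5.19e-06). The vasoconstrictor gene Edn1 rose from 0.791 to 1.32 TPM (0.70 log2 units, adjusted p 0.000139). It reached the filter of 1 TPM only through its KO level, so its call is given as a description. Trf, which encodes the iron carrier transferrin, rose by 0.67 (adjusted p 0.00101). Nos3, the endothelial nitric oxide synthase, rose by 0.31 (adjusted p 0.00645) and did not pass under median-of-ratios scaling (0.16, adjusted p 0.108). The 1 lower gene was Hmox1, which breaks down heme (-0.75 log2 units, adjusted p 0.0256), named after its value was seen. Tek (0.62 log2 units, peak 21.6 h) and Angpt2 (0.82, peak 4.0 h) were rhythmic in WT, in 21 and 17 of the 24 fits without 1 library. Tek was lost with TPM rescaled without mitochondrially encoded genes (adjusted p 0.0622), and Angpt2 with the WT libraries fitted alone (0.0514) and without the filter on low values (0.0665). In 3 endothelial markers of 4 the level was also higher in KO as deposited, beside 50.9% of all genes. Under median-of-ratios scaling 1 of the 4 was higher, beside 21.5% of all genes. The part of these markers in the differences above was not tested.

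Of the mitochondrial and autophagy targets, 4 of 8 were higher and 1 lower, beside 50.9% and 10% of all genes. Under median-of-ratios scaling 1 was higher and 3 lower, beside 21.5% and 22.6% of all genes. Pdk3, a kinase related to Pdk1, fell by 0.54 log2 units (adjusted p 1.52e-05), opposite in direction to Pdk1. Mxi1, a repressor that opposes Myc, rose by 0.29 (adjusted p 0.000167), Bnip3l, the close relative of Bnip3, by 0.18 (adjusted p 0.00432) and the protease gene Lonp1 by 0.13 (adjusted p 0.000286). Under median-of-ratios scaling Bnip3l did not pass (0.02) and Lonp1 stood at -0.02 log2 units. Higd1a (0.40 log2 units, peak 21.5 h) and Fundc1 (0.30, peak 23.7 h, adjusted p 0.0471) were rhythmic in WT. Higd1a held in all 24 fits that left out 1 library and Fundc1 in 7, and Fundc1 was lost under both other scalings (adjusted p 0.0624 and 0.154) and with WT fitted alone (0.0811). Pdk3 (0.61 log2 units, adjusted p 0.0258) and Ndufa4l2 (0.57, adjusted p 0.025), which lowers complex I activity, were rhythmic in KO, and neither passed in a fit of the KO libraries alone (adjusted p 0.12 and 0.187). Pdk3 was also lost without the library labelled KO ZT4 A (0.067) and under median-of-ratios scaling (0.0506).

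The last list, of other widely shared targets, had 10 of 20 genes higher in KO and 4 lower, beside 50.9% and 10% of all genes. Under median-of-ratios scaling 4 were higher and 5 lower, beside 21.5% and 22.6% of all genes. Pygl, the liver form of glycogen phosphorylase, rose from 10.1 to 20.3 TPM (0.98 log2 units, adjusted p 1.24e-06). The cytokine gene Mif rose from 272 to 438 TPM (0.67, adjusted p 5.61e-07), and the collagen-modifying Plod2 from 12 to 19.7 TPM (0.74, adjusted p 1.33e-05). Ak4 fell by 0.66 log2 units (adjusted p 2.86e-05). The other 3 lower genes were Plin2, Errfi1 and Rora. The lower call of Errfi1 (adjusted p 0.0333) held in 13 of the 24 fits without 1 library. It was lost without the filter on low values (0.0525) and without the time term (0.0731). Rhythmic in WT were P4ha1 (1.16 log2 units, peak 21.1 h), Plod2 (0.99, peak 23.1 h), Ak4 (0.90, peak 16.4 h) and P4ha2 (0.53, peak 19.3 h). The first 3 held in all 24 fits without 1 library, and P4ha2 in 22, but P4ha2 was lost with TPM rescaled without mitochondrially encoded genes (adjusted p 0.0636). P4ha1 and P4ha2, each encoding a subunit of collagen prolyl 4-hydroxylases, were rhythmic in KO too, with 0.65 log2 units (adjusted p 0.0172) and 0.74 (adjusted p 0.00973). Errfi1 was rhythmic in KO (1.11 log2 units, adjusted p 0.0218). None of the 3 passed in KO with the KO libraries fitted alone (adjusted p 0.0964, 0.107 and 0.159).

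The relatives of Ndrg1 in the NDRG family were lower in abundance. Ndrg2 averaged 49.3 TPM in WT and 44.5 TPM in KO, a log2 difference of -0.14 (adjusted p 0.0648), and -0.29 under median-of-ratios scaling (adjusted p 0.00101). Ndrg3 rose from 62.6 to 78 TPM (0.31 log2 units, adjusted p 0.00741) and Ndrg4 from 2.39 to 3.5 TPM (0.52, adjusted p 0.0342), and neither passed under median-of-ratios scaling (adjusted p 0.12 and 0.135). Without the libraries labelled KO ZT4 A and KO ZT12 A, Ndrg2 passed as lower (-0.17, adjusted p 0.0303) and Ndrg4 did not pass (0.49, adjusted p 0.0638). The difference in rhythm did not pass for any of the 3 (adjusted p 0.538 to 0.964).

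Most members were read from a single transcript. Ndrg1-201 gave 95.7% of Ndrg1 TPM, with a share of 96.6% ± 1.2 (SD, n = 12) in WT and 95.2% ± 2.3 (SD, n = 12) in KO. Pgk1-201, Ldha-202 and Bnip3-201 gave 99.7%, 99.1% and 93.5% of their genes. Hif1a was split between Hif1a-201 (53.7%) and Hif1a-202 (40.7%), and the shares of both differed little between genotypes. Vegfa was the most divided, with 30.2% in Vegfa-202 and several transcripts annotated as retained introns, so its total includes RNA that does not encode the growth factor. GENCODE M21 annotates 7 other genes that overlap Ndrg1, Hif1a, Epas1 or Bnip3, 5 of them on the opposite strand. None had a transcript of its own in the deposited table, and whether counting used strand is not given in the sources used here.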

How the data were processed

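RNA values came from 24 kidney libraries. The authors deposited TPM per transcript, made with kallisto 0.42.4 and with the builds mm10 and GRCm38 named, per the submitters' processing notes. Each library adds up to 999999 to 1000001, so depth is not recoverable and no counting interval is given. The 4C-seq libraries of the series were not used. All 24 sample columns were used. Through GENCODE M21, 86119 of 88198 transcripts were matched to genes by Ensembl identifier without version and summed, and the 2079 unmatched ones (1.35% to 2.24% of TPM) were left out.

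The 12874 genes whose mean reached 1 TPM were analysed as log2(TPM + 0.1), and a fold change on this scale understates the change of low genes. limma 3.58.1 (trended, robust eBayes) in R 4.3.3 gave the level difference (genotype, with time as a 6-level factor) and, from a 24 h cosine and sine per genotype with 1 spread per gene, F tests of the rhythm in WT, in KO and of their difference. P-values were adjusted by Benjamini-Hochberg over all genes, with 0.05 as the threshold. The fits were tested on simulated data. Alternatives changed the pseudocount, filter, scaling, block, eBayes options, time term and libraries. The fits with protein-coding transcripts only, without the libraries labelled KO ZT4 A and KO ZT12 A together, and of KO alone without KO ZT4 A were chosen after seeing the data.

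The members, the pathway, family and marker lists, and the tests were chosen with earlier results of these data known. Named were all members, any pathway gene passing the difference in rhythm, and in each list the genes past the threshold with the smallest p-values, up to 4 for WT rhythm, 3 for KO rhythm and 4 for level. The 6 most and 3 least similar genes to Ndrg1 were named by Pearson r. The replicate letters A and B do not mark shared animals in the labels. Over 66 pairs of groups, the deviations of A from B correlated at -0.323 to 0.338 (median 0.0223), so the letters were not taken to pair samples. Promoter windows were searched with Python 3.11.15.

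Marker lists covered 14 cell types, of which 1 is not reported here. As deposited, in KO the thick ascending limb list had 2 of 3 genes higher and 1 lower, and the distal convoluted tubule list 3 of 3 higher. The inner medulla list had 3 of 4 higher and the erythroid list 2 of 3 higher. These counts stand beside 50.9% of all genes called higher and 10% lower. The pericyte and fibroblast list (3 tested), the leukocyte list (2 tested) and the adipocyte list (1 tested) had 0 called in either direction. The adrenal cortex and skeletal muscle lists had 0 genes tested.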

Additional observations from a re-analysis of the deposited data

Results flagged for a closer look

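In the HIF pathway lists and the marker lists reported here, the rhythm of 2 genes differed between genotypes by the test of the difference itself. Ndrg1, picked for that difference, is left aside. The 6 genes named as most like Ndrg1 passed the test too, as did Per3 and Alms1-ps2 with the opposite pattern. They were picked by their r with Ndrg1, so their passing is no separate result. Ak4, of the HIF target lists, had a fitted swing (peak minus trough) of 0.90 log2 units in WT, against 0.38 in KO (adjusted p 0.0437, limma). Atp6v1g3, an intercalated cell marker, swung by 0.54 log2 units in WT (SE 0.11, peak at 22.1 h) and by 0.33 in KO (SE 0.11, peak at 13.8 h, adjusted p 0.0437). With TPM rescaled without mitochondrially encoded genes, the call of Atp6v1g3 was lost. The 2 genes share 1 adjusted p because of how the Benjamini-Hochberg steps fall, with unadjusted p-values of 0.000204 for Ak4 and 0.000229 for Atp6v1g3.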

How the results depend on the processing

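Without a filter on low values, 295 genes were rhythmic in KO and 43 differed in rhythm, against 468 and 81. With time as a 6-level factor, 576 genes were rhythmic in WT, 28 in KO and 23 differed, and 1 of the 10 genes described here (Ndrg1) was rhythmic in WT. Fits of 1 genotype alone gave 2843 rhythmic genes in WT and 12 in KO, or 11 in KO without the library labelled KO ZT4 A. Of the 10 genes, 7 differed in level under median-of-ratios scaling, beside 44.1% of all genes. After rescaling without mitochondrially encoded genes 5 did, beside 47%, and as deposited 3 did, beside 60.9%. With protein-coding transcripts only, 1 of the 10 (Pdk1) was rhythmic in KO, beside 5.25% of genes. Leaving out 1 library at a time gave 7407 to 8107 genes for level, 1193 to 2140 for WT rhythm, 272 to 620 for KO rhythm and 37 to 112 for the difference. Of the 10 genes, 3 to 4, 4 to 5, 0 and 1 passed these 4 tests in the same fits. These counts include Ndrg1, and the 1 that passed the difference was Ndrg1, which was picked for it. The KO count was lowest without KO ZT0 B and was 297 without KO ZT8 B, and the count for the difference was lowest without WT ZT4 B and was 50 without KO ZT8 B. Lonp1 and Fundc1 turned to a lower level in KO under median-of-ratios scaling (adjusted p 0.549 and 0.381). Over the 10 genes, 1436 of the alternative results kept their side of the threshold, 4 lost it and 26 gained it. Over the other named genes 4463 kept it, 176 lost it and 39 gained it. With the replicate letter as a block, 7873 genes differed in level, 1842 were rhythmic in WT, 525 in KO, and 76 differed in rhythm. The block within each genotype gave 7900, 1791, 508 and 74. Under the block within genotype the rhythm difference of Ak4 did not pass (adjusted p 0.0552), while the level of Bnip3 (0.046) and the WT rhythm of Bnip3l (0.0454) did. Unknown depth limits the precision of low genes such as Egln3. The cause of these changes was not tested.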
